A study of Homo sapiens with 2 samples.

Results

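The expression of 10 tubulin genes was followed across 2 Affymetrix whole-transcript arrays of LP-1 cells, a long-established line grown from a human multiple myeloma. They are the beta-tubulin genes TUBB, TUBB2A, TUBB2B, TUBB3, TUBB4B and TUBB6 and the alpha-tubulin genes TUBA1A, TUBA1B, TUBA1C and TUBA4A, chosen by name. The choice was made with TUBB2B already known to lie among the genes with the largest negative differences between these arrays. Of the 10 genes, 9 have probe sets of their own, 13 in all, out of 18377 genes measured by 19310 single-gene probe sets. TUBB3 is covered only by 1 probe set that the array annotation also assigns to MC1R, a melanocortin receptor gene.

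On 1 array the cells had been infected with pRUF-IRES-GFP, a vector without insert (the vector control). On the other they carried that vector with the full-length human HIF-2α cDNA (the HIF2A array). HIF-2α, the product of EPAS1, is a transcription factor subunit that cells degrade when oxygen is ample. The labels do not say whether either line is a clone or a pool, nor the oxygen tension of the cultures. The comparison asks which transcripts differ when HIF-2α is added to myeloma cells. With 1 array per group there is no replicate, so no error, test or p-value can be given, and every difference below is that of these 2 arrays. The RNA is from bulk cells, so fewer cells with a transcript and less of it per cell cannot be told apart.

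Tubulin is a dimer of 1 alpha and 1 beta chain, and dimers polymerise into microtubules, the tracks of intracellular transport and the fibres of the mitotic spindle. The isotypes of each chain are close copies that differ mostly in their acidic C-terminal tails, where motors, associated proteins and modifying enzymes act. New chains are folded by the chaperonin CCT, prefoldin and the tubulin cofactors, and cells with excess free dimer degrade tubulin mRNAs while they are being translated. In plasma cells and myeloma cells microtubules also serve the heavy traffic of secreted antibody.

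TUBB2B and TUBB2A, neighbouring beta-tubulin genes on chromosome 6 that are known for high expression in the developing brain, were lower in the HIF2A array, TUBB2B 3.16-fold and TUBB2A 2.27-fold on its brightest probe set. TUBA4A, whose product lacks the C-terminal tyrosine encoded by most alpha-tubulin genes, was 1.60-fold higher. The other 6 genes with probe sets of their own lay within 1.5-fold, from -0.19 for TUBA1A to 0.33 for TUBB4B on the log2 scale. The tubulin genes therefore had no common direction, with 4 higher, 4 lower and TUBB6 equal, where, among the 11469 genes kept by a filter (a log2 signal of at least 4.01 on the brighter array), 52.6% were higher and 46.1% lower. TUBB, TUBB6 and TUBA1C came to 0 or turned sign under other scalings.

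TUBB2B, TUBA4A and, on its brightest probe set, TUBB2A are the 3 members past 1.5-fold. TUBB2A was 1.29-fold lower on the probe set tied to its RefSeq transcript. For these 3 genes the 250 bases before the RefSeq transcription starts (GRCh38.p14) are shown. They are read 5′ to 3′ on the minus strand, which carries all 3 genes. Capitals mark matches on either strand to ACGTG or GCGTG, the core letters bound by HIF, and to TGACG, the core of the cyclic AMP response element (CRE). TUBB2A lies at chr6:3157545-3157794, TUBB2B at chr6:3227654-3227903 and TUBA4A at chr2:219253919-219254168.
TUBB2A: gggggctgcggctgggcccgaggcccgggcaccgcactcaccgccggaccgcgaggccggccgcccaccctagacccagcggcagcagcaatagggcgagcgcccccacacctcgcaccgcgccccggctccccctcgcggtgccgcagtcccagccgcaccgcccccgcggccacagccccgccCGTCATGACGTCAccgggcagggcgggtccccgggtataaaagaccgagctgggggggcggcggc
TUBB2B: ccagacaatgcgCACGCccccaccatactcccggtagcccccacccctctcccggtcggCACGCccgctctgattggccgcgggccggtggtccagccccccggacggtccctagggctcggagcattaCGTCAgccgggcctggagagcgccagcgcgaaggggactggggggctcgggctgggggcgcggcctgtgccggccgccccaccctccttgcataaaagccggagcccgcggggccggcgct
TUBA4A: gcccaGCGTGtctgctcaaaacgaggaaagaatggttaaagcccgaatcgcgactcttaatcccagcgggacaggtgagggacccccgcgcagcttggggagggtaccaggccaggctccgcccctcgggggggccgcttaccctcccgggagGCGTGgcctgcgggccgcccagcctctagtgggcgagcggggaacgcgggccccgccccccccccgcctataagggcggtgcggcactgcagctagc

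The TUBB2A window holds no HIF core on either strand. Its capitals, from 65 to 53 bases before the start, contain the full palindromic CRE, TGACGTCA, which 1.65% of 35116 promoter windows of this length hold. They make 3 matches to TGACG, and those at 60 to 56 and at 57 to 53 bases overlap. The TUBB2B window has 1 match to TGACG, on the reverse strand, from 121 to 117 bases before the start, and GCGTG on the reverse strand at 238 to 234 and at 191 to 187 bases. The TUBA4A window has GCGTG on the forward strand at 245 to 241 and at 97 to 93 bases and no TGACG.

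RefSeq windows were matched for all 10 members, 15 starts in all, since some genes have several. TGACG occurs in 4 of the 15, in TUBB2A, TUBB2B, TUBB4B and 1 of the TUBB starts, against 21.2% of all windows. TUBB and TUBB4B differed by 0.09 and 0.33, so the core also precedes members that were not lower. Neither was past 1.5-fold, and TUBB came to 0 under quantile normalization. Whether the core goes with the direction of a gene was not tested. A HIF core occurs in 6 of the 15, against 43.2% of all windows, and ACGTG alone in 3 of the 15, against 18.5%. The CRE letters were searched after the windows had been read, and a match is a description of the letters, not of binding.

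TUBB2B had a log2 signal of 7.03 in the vector control and 5.37 in the HIF2A array, which differ by -1.66. That difference is the 10th lowest of the 11469 genes past the filter, which was set at the median probe set signal. TUBB2A has 3 probe sets. A pair of them, each tied by the annotation to the same single mRNA record and to no RefSeq transcript, gave identical signals of 6.03 in the vector control and 4.85 in the HIF2A array, which differ by -1.18. The remaining one, tied to the RefSeq transcript, gave 5.58 and 5.21, a difference of -0.37 or 1.29-fold. It was dimmer than the pair in the vector control but brighter in the HIF2A array. The pair was thus the brightest in the vector control and over both arrays together, but not in the HIF2A array.

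All 3 TUBB2A probe sets were thus lower in the HIF2A array, though the identical pair does not give separate readings. Only the pair passed 2-fold, and the size for TUBB2A depends on which is read. TUBB2A and TUBB2B encode nearly identical proteins and a relative, TUBB2BP1, lies between them, so their probes may share targets; cross-hybridization was not tested. All 14 probe sets of the 10 genes exceeded, on both arrays, the 95th percentile of 359 olfactory receptor genes (3.59 in the vector control and 3.58 in the HIF2A array), taken as background. The smallest margin was 1.27, for the TUBB2A pair in the HIF2A array.

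**Figure D1:**
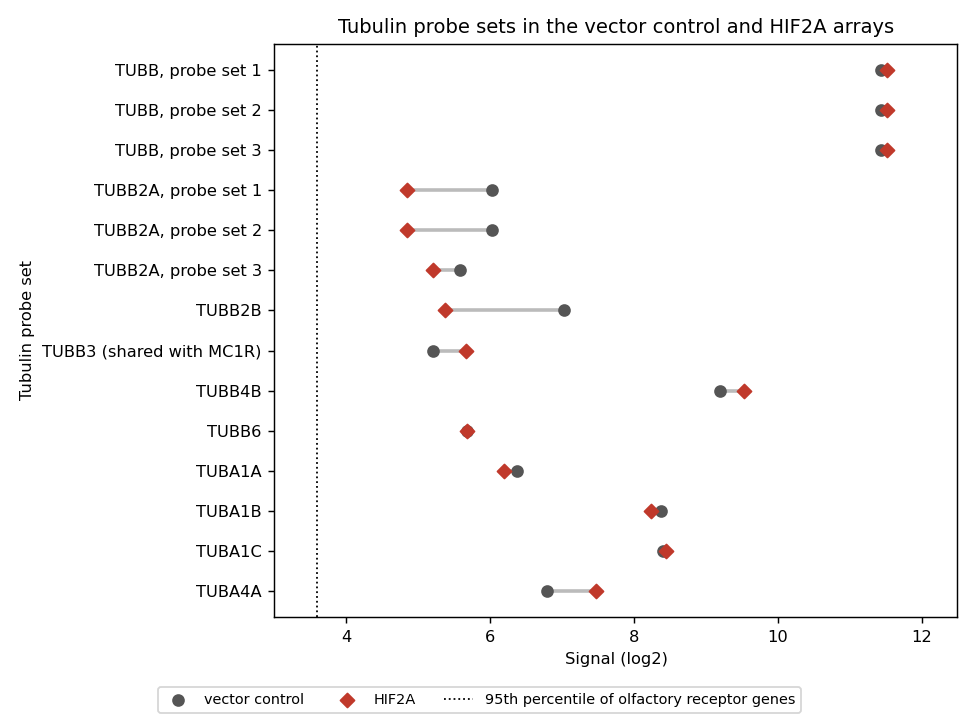
Log2 signal (horizontal axis) of each tubulin probe set (vertical axis) in the vector control array (grey circles) and the HIF2A array (red diamonds), 1 array each, with lines joining the same probe set and a dotted line at the 95th percentile of olfactory receptor genes in the vector control. TUBB2B and the TUBB2A probe sets lie to the left in the HIF2A array, TUBA4A, TUBB4B and TUBB3 to the right.

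TUBB encodes the widely expressed beta-tubulin of dividing cells. Its 3 probe sets gave the same signals, 11.43 in the vector control and 11.52 in the HIF2A array, which differ by 0.09. They are therefore not separate readings. TUBB4B, another widely expressed beta chain that is also a main component of cilia, had 9.20 and 9.53, a difference of 0.33, the highest of the beta genes with probe sets of their own. TUBB6, a beta gene best known from muscle and other non-neuronal tissue, had 5.68 on both arrays. The bright beta genes were thus not lower where TUBB2A and TUBB2B were.

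TUBB3, the beta isotype used as a marker of neurons and of taxane resistance in tumours, can be read only through the probe set shared with MC1R. It had 5.21 in the vector control and 5.67 in the HIF2A array, which differ by 0.46 or 1.38-fold, and how much of this signal belongs to TUBB3 cannot be told.

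The alpha genes TUBA1A, TUBA1B and TUBA1C lie on chromosome 12. TUBA1A, the main alpha isotype of developing neurons, had 6.38 in the vector control and 6.19 in the HIF2A array, which differ by -0.19. TUBA1B, a widely expressed alpha chain, had 8.37 and 8.24, a difference of -0.13. TUBA1C, its close relative, had 8.41 and 8.44, a difference of 0.03. These 3 differed by less than the robust SD of the differences across all genes past the filter, which was 0.34.

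TUBA4A, an alpha gene also linked to amyotrophic lateral sclerosis, had 6.79 in the vector control and 7.47 in the HIF2A array. Its difference of 0.68 is the 393rd highest of the 11469 genes, and 96.5% of genes past the filter had a lower one.

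**Figure D2:**
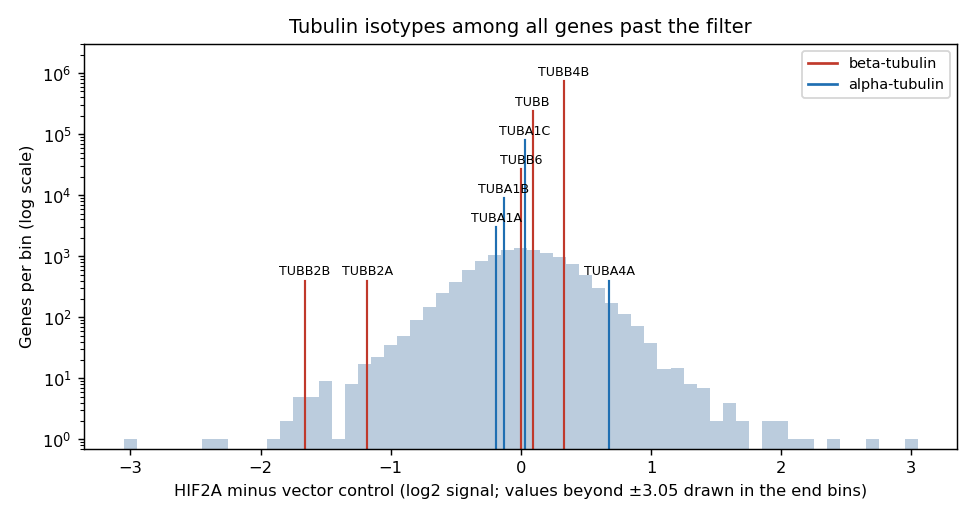
Histogram of HIF2A minus vector control differences in log2 signal (horizontal axis) for the 11469 genes past the filter, with gene counts on a log scale (vertical axis) and vertical lines for the 9 tubulin genes with own probe sets, red for beta and blue for alpha, whose heights only separate the names. TUBB2B at -1.66 and TUBB2A at -1.18 lie in the lower tail and TUBA4A at 0.68 on the upper slope, while the other 6 lie near 0.

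Across the 9 genes the median difference was 0 and the mean -0.23, against a median of 0.03 over all genes past the filter. At least 2-fold lower were 2 of the 9, where 0.732% of all genes past the filter were. The count was 1, TUBB2B, with the dimmest or the mean of the probe sets of TUBB2A and with 32 added on the linear scale. None of the 9 was at least 2-fold higher, where 0.706% of all genes were. At 1.5-fold TUBB2A and TUBB2B were lower and 1 was higher, against 4.76% and 5.67% of all genes. Nothing is read from the lower count, since TUBB2B was known to be low when the genes were chosen.

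The chromosomal surroundings of the 3 genes differed. TUBB2A and TUBB2B are adjacent among measured genes. The 20 genes nearest to TUBB2B had a median difference of -0.075, with 13 lower and 6 higher, against 46.1% and 52.6% of genes past the filter. Leaving out TUBB2A, these neighbours ran from -0.73 for NQO2, which encodes a quinone reductase, to 0.58 for CDYL, a chromodomain gene. The genes next to the pair were BPHL at 0.44 and PSMG4, a proteasome assembly chaperone gene, at -0.19. TUBB2A on its brightest probe set and TUBB2B lay below every other gene of the stretch. The RefSeq-tied probe set of TUBB2A, at -0.37, lay above NQO2.

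TUBA4A lies among genes that were mostly higher, 13 of the nearest 20 against 52.6% of genes past the filter, with a median of 0.18. Its adjacent relative TUBA4B, which the gene table places directly after it, had 4.43 in the vector control and 5.05 in the HIF2A array, which differ by 0.62. On the other side STK16 had -0.23, and beyond it ANKZF1 had 0.74, the autophagy gene ATG9A 0.91 and the transporter gene ABCB6 0.76. ANKZF1, ATG9A and ABCB6 thus had differences above that of TUBA4A, and the part of the locus in the TUBA4A value was not tested. With the median of its neighbours subtracted TUBA4A came to 0.50, which is under 1.5-fold.

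**Figure D3:**
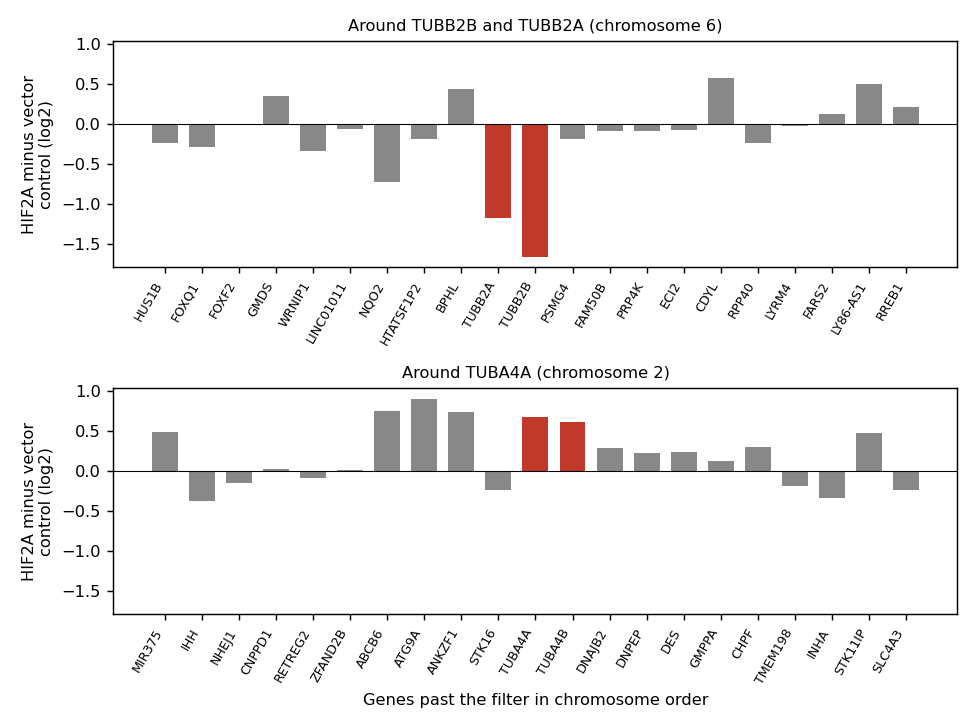
HIF2A minus vector control difference in log2 signal (vertical axes) of genes past the filter in chromosome order (horizontal axes), around TUBB2B and TUBB2A in the upper panel and around TUBA4A in the lower one, tubulin genes in red and others in grey, 1 array per group. TUBB2A, drawn on its brightest probe set, and TUBB2B stand below neighbours between -0.73 and 0.58, while ABCB6, ATG9A and ANKZF1 lie above TUBA4A.

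None of the other tubulin genes past the filter was lower by 1.5-fold, and only TUBA4B, at 0.62, was higher by it. Of all genes past the filter, 4.76% were lower and 5.67% higher by 1.5-fold. Of 12 with own probe sets 9 passed the filter, with 5 higher, 4 lower, a median of 0.23 and none past 2-fold in either direction. Over all 12, without the filter, the median was -0.065, so the list has no settled direction. TUBG1 and TUBG2, the gamma-tubulins that nucleate microtubules, had differences of 0.44 and 0.25. TUBD1 and TUBE1, the delta and epsilon tubulins of centrioles, had 0.23 and -0.03. Among further alpha genes TUBA3C had 0.43, TUBA8 -0.26 and TUBA3E -0.41, and the beta gene TUBB4A, abundant in oligodendrocytes, had -0.10. A probe set that the annotation shares among TUBA3C, TUBA3D and TUBA3E had -0.12.

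The beta genes TUBB1, specific to platelets and their precursors, and TUBB8, of the oocyte, did not pass the filter, nor did the alpha gene TUBAL3. Their signals in the vector control were 3.97, 3.71 and 3.69, close to the olfactory receptor level. In the HIF2A array they were 3.67, 3.09 and 3.37. TUBB8 thus differed by -0.62, more than 1.5-fold, at signals below the filter.

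Genes that fold tubulin went both ways. Of 7 genes listed as tubulin cofactors and past the filter, 4 were higher and 3 lower, with a median of 0.03. None was past 1.5-fold, where 4.76% of all genes past the filter were lower and 5.67% higher by it. The list includes TBCK, at -0.06, which encodes a kinase-like protein and not a tubulin cofactor. TBCEL, related to the cofactor TBCE, had 0.55, and TBCB, which acts on alpha-tubulin, had -0.42. Among 16 chaperonin, prefoldin and phosducin-like genes 8 were higher and 8 lower, with a median of -0.02. The phosducin-like genes, which encode neither chaperonin subunits nor prefoldins, were among the lower ones. CCT6A, a chaperonin subunit gene, was the one past 1.5-fold, at 7.90 in the HIF2A array against 8.57, a difference of -0.67, whereas CCT4 had 0.42 and the prefoldin gene PFDN4 had -0.45.

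The machinery that degrades tubulin mRNAs was represented by 12 genes, 8 higher and 4 lower, with a median of 0.11. TTC5, which recognises nascent tubulin chains on the ribosome, had 4.74 in the vector control and 4.41 in the HIF2A array, which differ by -0.33. SCAPER, the adaptor that brings in the CCR4-NOT deadenylase, had 4.51 and 5.15, a difference of 0.64. The deadenylase subunit gene CNOT8 had 5.05 and 5.90, a difference of 0.85, among neighbours with a median of 0.425. SCAPER and CNOT8 were the members past 1.5-fold, where 5.67% of all genes past the filter were higher by it.

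Of 20 genes of microtubule nucleation 9 were higher and 11 lower, with a median of -0.015. HAUS8 and MZT2B, which encode an augmin subunit and a small protein of the gamma-tubulin complex, were lower by more than 1.5-fold, with differences of -0.88 and -0.71. NEDD1, which recruits that complex to centrosomes, had 0.70. The microtubule polymerase gene CKAP5 had 0.59, among neighbours with a median of 0.31. By 1.5-fold, 4.76% of all genes past the filter were lower and 5.67% higher.

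Among 14 genes for enzymes that modify tubulin tails and lysines, 10 were higher and 4 lower, with a median of 0.12. TTLL1, a polyglutamylase gene, was past 1.5-fold with 4.38 in the vector control and 5.0 in the HIF2A array, which differ by 0.62. TTLL12 and MATCAP1 had 0.50 and 0.48. VASH1, whose product removes the C-terminal tyrosine of alpha-tubulin, had -0.45, and the deacetylase gene HDAC6 had -0.29.

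Destabilising and severing proteins had the lowest median of the related microtubule lists, -0.285 over 12 genes, with 5 higher and 7 lower, and 4 at least 1.5-fold lower, against 4.76% of all genes past the filter. The kinesin gene KIF18B had -0.64, FIGNL1 -0.63 and STMN1, which sequesters free tubulin dimers, -0.62. In the other direction the severing gene SPAST had 0.84. The depolymerising kinesin gene KIF2A had 0.56, among neighbours with a median of 0.345. Without the filter on dim genes the median of the list came to -0.07.

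Of 19 genes of stabilisers and plus-end proteins 13 were higher and 6 lower, with a median of 0.09. CLASP2, which rescues shrinking microtubules, had 0.68 and CAMSAP2, which caps minus ends, had 0.42, whereas the end-binding genes MAPRE2 and MAPRE1 had -0.30 and -0.19. Cytoplasmic dynein and kinesin-1 genes numbered 21 past the filter, with 11 higher and 8 lower and a median of 0.07. The dynactin gene DCTN4 had 0.73, among neighbours with a median of 0.38, and the kinesin light chain gene KLC1 had 0.61, while the dynein genes DYNC1I1 and DYNLT3 had -0.64 and -0.60.

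For the other filament system, 24 actin, actin-binding and intermediate filament genes split into 10 higher and 14 lower, none past 1.5-fold, with -0.095 as their median. ACTG1 had 0.40, ACTN1 0.53 and the cofilin gene CFL1 -0.46. To set beside the counts of all related lists, 52.6% of genes past the filter were higher and 46.1% lower. At 1.5-fold these shares were 5.67% and 4.76%. No gene past the filter in these 10 related lists differed by 2-fold. Of all genes past the filter, 0.732% were at least 2-fold lower and 0.706% at least 2-fold higher. With shares this small, nothing is read from that absence.

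**Figure D4:**
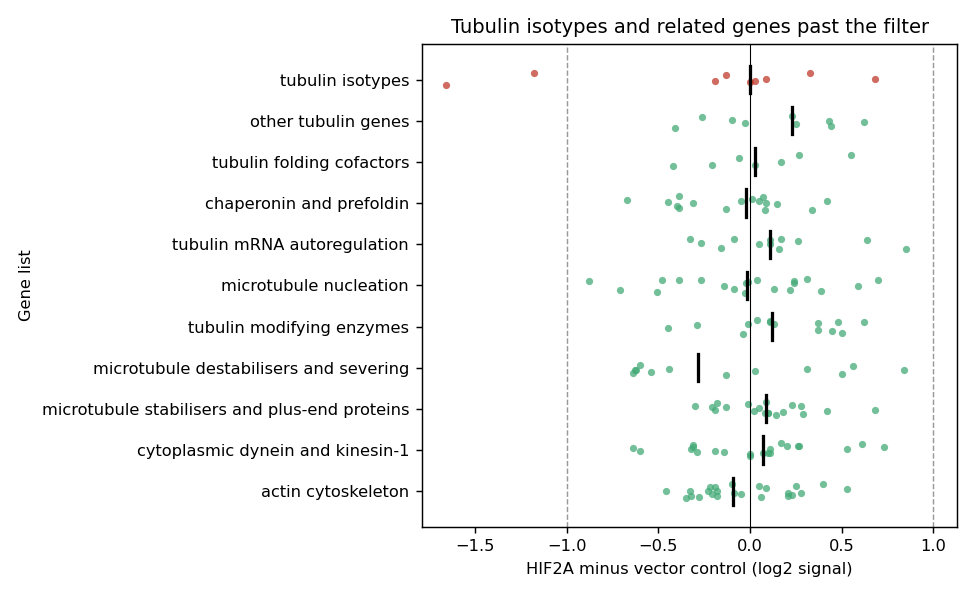
HIF2A minus vector control difference in log2 signal (horizontal axis) of the 9 tubulin isotypes with own probe sets (red) and of genes past the filter in 10 related lists (green, vertical axis), with black bars at list medians and dashed lines at 2-fold. TUBB2B and TUBB2A are the points beyond 2-fold; point height within a list is random.

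TUBB2A, TUBB2B, TUBB3 and TUBA1A are known from neurons, and 10 neuronal markers gave the level of other such genes. Of these, 6 lay below the olfactory receptor percentile on both arrays, among them the doublecortin gene DCX and MAP2, and only SNAP25 passed the filter, at 4.42 in the vector control and 3.76 in the HIF2A array. The median over all 10 was 3.38 in the vector control and 3.40 in the HIF2A array. The neuronal markers were thus near background on both arrays, while TUBB2B had 7.03 and 5.37.

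As checks of the labels, EPAS1 had 3.70 in the vector control and 9.05 in the HIF2A array. Of 10 plasma cell markers 9 passed the filter, with a median difference of -0.04, or -0.265 under quantile normalization and -0.14 under loess centring. TNFRSF17, the BCMA gene, was the only one of them past 2-fold, at 8.71 in the vector control and 7.68 in the HIF2A array. The lists of early B, T and NK, myeloid, stromal, and endothelial and erythroid markers had medians between 3.29 and 3.98 on either array. These lie below the filter of 4.01, and the olfactory receptor percentiles were 3.59 and 3.58. Single markers passed the filter, among them COL1A1 at 4.72 in the vector control and 4.59 in the HIF2A array, and NKG7 at 4.47 and 4.81.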

How the data were processed

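RNA from each LP-1 line, extracted with TRIzol and an RNeasy kit per the labels' protocols, was hybridised to 1 array. The authors deposited 1 log2 signal for each probe set and array; per the submitters' processing notes the tool was Affymetrix Expression Console. Its algorithm, background correction and centring are not stated in the labels. Base 2 was inferred from the range of the values. Scanner files were not used here.

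Of 28869 probe sets, 19310 carry 1 gene symbol, updated by Entrez number through the RefSeq table of GRCh38.p14, which served for names and gene order; its starts set the promoter windows. A gene was represented by its brightest probe set over both arrays, and entered when its brighter array reached 4.01; 11469 genes did. Differences are HIF2A minus vector control. The members, lists and counts were chosen with earlier results of these data known. All 10 members are named, and in each related list up to 3 genes with the largest positive and 3 with the largest negative differences, except that any other tubulin gene may be named; neighbouring genes and those of the marker lists were picked after their values were seen. Alternatives were quantile, median and loess centring (span 0.3), 32 added on the linear scale, the mean or dimmest probe set, other filters, and subtraction of the median of 20 neighbours. The code was tested on simulated data. Python 3.11.15, numpy 2.4.6, pandas 2.3.3, statsmodels 0.14.6 and matplotlib 3.10.9 were used.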

Additional observations from a re-analysis of the deposited data

How the results depend on the processing

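The number of isotypes at least 2-fold lower was 1, in place of 2, with 32 added on the linear scale, with probe sets averaged per gene and with the dimmest probe set. TUBB2B was the one that kept 2-fold in these settings, at -1.15 with 32 added and -1.66 with either choice of probe set. TUBB2A came to -0.68, -0.91 and -0.37 in them, so that 1 isotype was at least 1.5-fold lower with the dimmest probe set. The mean of the TUBB2A probe sets counts the identical pair as separate sets. The number at least 1.5-fold higher was 0, in place of 1, with 32 added and with the median of neighbours subtracted. The mean of the 9 differences was -0.226 where the median was 0. Of 63 values of single isotypes under other settings, 60 moved by less than the robust SD of 0.34 and 0 called differences turned sign. Genes with 1 probe set cannot move with that choice, so this count does not measure stability. Under quantile normalization TUBB came to 0, and the sign of TUBB6 was not settled, from -0.05 to 0.01 over the scalings. Of 120 values of the 10 related lists 2 moved, both without a filter, where the median of the other tubulin genes was -0.065 and that of destabilising and severing genes -0.07. Of 72 values of marker lists 3 moved. No array could be left out. No paired analysis was possible because each group has 1 array, whose number limits the precision.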
